A study of Mus musculus with 8 samples.

Results

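The genes described here are 40 genes of mitosis and the spindle checkpoint, taken as the entries of a deposited count table whose gene symbol was on a fixed list. All 40 symbols had exactly 1 entry among the 19884 genes of the table, and all 40 held enough counts to be tested. RNA was sequenced from the whole uterus (4 libraries, each from 1 animal) and the whole brain (4 libraries, each from 1 animal) of wild-type C57BL/6J mice on day 4 of gestation. The dams were adults of 6 to 10 weeks, were mated with fertile males and received no treatment. Day 1 was the day of the vaginal plug, and pregnancy was established on day 4 from blastocysts flushed out of the uterus. No other day of gestation and no non-pregnant animal was analysed here, and the labels do not say whether a uterus and a brain of the same number came from the same mouse.

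A dividing cell raises the RNA of many of these genes together in the G2 and M phases. Cyclins A and B bind the kinase Cdk1 to start mitosis, the kinetochore ties each centromere to spindle microtubules, and the spindle checkpoint holds back the anaphase-promoting complex until every chromosome is attached. That complex then marks securin and cyclin B for destruction, sister chromatids part, and the central spindle directs cytokinesis. In the mouse uterus, progesterone of early pregnancy is known to set stromal cells dividing while luminal epithelial cells stop before implantation. In the adult brain, dividing cells are few and lie mainly among neural progenitors and oligodendrocyte precursors, since neurons leave the cell cycle for good.

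Libraries held 35394603 to 40254254 counts in uterus and 40115616 to 47790178 counts in brain. Levels below are CPM, counts scaled to library size after TMM, a correction for differences in RNA composition, each given as mean ± SD over n = 4 libraries unless single libraries are named. A value in parentheses after the levels of both organs is the log2 fold change, uterus over brain, ± SE. For the 37 of the 40 genes other than Bub3, Pttg1 and Anln its adjusted p was at most 1.3e-05 (edgeR quasi-likelihood test). Markers fitted the labelled organs: those of uterine stroma summed to 6935 to 8389 CPM in uterus and to 107 to 110.5 CPM in brain, and those of neurons to 2.19 to 4.85 CPM in uterus and to 5906 to 6120 CPM in brain. Of 7 blastocyst markers, Pou5f1, Cdx2 and Zfp42 had 0 counts in every uterus library, where 3 counts, the limit that a count of 0 allows, equal at most 0.0761 CPM (counting error only). Nanog, Tdgf1 and Dppa5a had 9, 13 and 20 counts over the 4 uterus libraries. Eomes, which is also a marker of neural progenitors in the lists used here, had 1132 counts there (6.89 CPM). Over the 4 brain libraries, Nanog, Tdgf1, Dppa5a and Eomes had 8, 177, 8 and 2214 counts. In whole organs, a lower number of dividing cells and less of these RNAs per cell cannot be told apart.

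Many G2 and M phase genes carry a CHR element (TTTGAA, or TTCAAA on the other strand) near their start, which the MuvB complex is known to bind through Lin54, and a CCAAT box (CCAAT, or ATTGG on the other strand) bound by NF-Y. Promoter windows from RefSeq on GRCm38.p6, 250 bases before to 50 bases after a gene's start, were found by symbol for 35 of the 40 genes and not for Aurkb, Ccna2, Cdc25c, Incenp and Tpx2. The TTTGAA letters stood on either strand in 24 of 35 genes (68.6%), against 14.7% of 12145 tested genes with a window and 17.9% of all 32851 windows. Near the start the contrast was larger: in 22 of 35 genes (62.9%) the element began within 50 bases of the start, against 3.76% of the tested genes. CCAAT letters were found in 25 of 35 genes (71.4%), against 42.2% of the tested genes and 37.4% of all windows. Both were found in 21 of 35 (60%), against 6.07% of the tested genes and 6.95% of all windows. The median log2 fold change (uterus over brain, described further on) was 4.17 for the 24 genes with a CHR element and 3.63 for those without. It was 4.09 for the 22 genes with one within 50 bases of the start and 4.20 for the others. For CCAAT letters it was 4.24 with and 2.67 without, and for 2 or more CCAAT boxes 4.76 with and 3.36 without. Genes with both motifs had 4.11 and the others 3.92, while the 7 genes with neither had 2.24 and the others 4.47. A link between letters and fold change was not tested. The searches give matches of letters with no measure of binding. No match says only that the letters are not in the window, and the motifs can share 1 base at their ends.

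The 150 bases before the start are shown for 5 genes whose upstream stretch holds both motifs, for Nuf2, whose window holds neither, and for Anln, which differs from the rest in the comparison of the organs. Capitals mark the CHR element and the CCAAT box on either strand, and each sequence ends at the base before the start.
Cdk1, chr10:69352913-69353062, minus strand: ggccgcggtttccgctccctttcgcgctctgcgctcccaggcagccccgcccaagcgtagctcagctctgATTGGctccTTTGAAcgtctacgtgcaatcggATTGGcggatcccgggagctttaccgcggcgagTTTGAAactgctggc
Top2a, chr11:99024190-99024339, minus strand: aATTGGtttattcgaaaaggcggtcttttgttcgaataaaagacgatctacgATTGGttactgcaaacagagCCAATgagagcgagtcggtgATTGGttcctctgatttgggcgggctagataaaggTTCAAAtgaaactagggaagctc
Mki67, chr7:135716380-135716529, minus strand: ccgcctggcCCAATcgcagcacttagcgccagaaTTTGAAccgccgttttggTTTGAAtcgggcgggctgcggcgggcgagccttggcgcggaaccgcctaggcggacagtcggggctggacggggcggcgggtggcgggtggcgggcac
Cdc20, chr4:118437344-118437493, minus strand: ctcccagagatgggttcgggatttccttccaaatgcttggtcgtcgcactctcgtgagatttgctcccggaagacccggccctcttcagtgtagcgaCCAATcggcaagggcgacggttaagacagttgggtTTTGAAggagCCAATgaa
Espl1, chr15:102296143-102296292, plus strand: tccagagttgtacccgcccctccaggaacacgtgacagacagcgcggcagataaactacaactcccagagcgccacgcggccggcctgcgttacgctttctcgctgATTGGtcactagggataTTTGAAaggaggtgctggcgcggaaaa
Nuf2, chr1:169531465-169531614, minus strand: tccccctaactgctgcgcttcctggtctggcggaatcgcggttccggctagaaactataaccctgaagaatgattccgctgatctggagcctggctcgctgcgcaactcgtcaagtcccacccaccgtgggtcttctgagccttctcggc
Anln, chr9:22389207-22389356, minus strand: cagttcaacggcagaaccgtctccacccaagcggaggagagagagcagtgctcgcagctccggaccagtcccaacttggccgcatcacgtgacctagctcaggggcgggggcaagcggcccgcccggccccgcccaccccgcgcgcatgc
Within these stretches the CHR elements of Cdk1 began at 71 and 15 bases before the start, that of Top2a at 23, that of Cdc20 at 18 and that of Espl1 at 27. The Top2a stretch held 4 CCAAT boxes, the largest number among these 7. In Anln the TTTGAA letters lay only after the start, beyond the stretch shown. No TTTGAA or CCAAT letters were found in the windows of Birc5, Knstrn, Mad2l1, Nuf2, Nusap1, Plk4 and Pttg1, which is 7 of 35 genes (20%) against 50.3% of the tested genes.

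**Figure D1:**
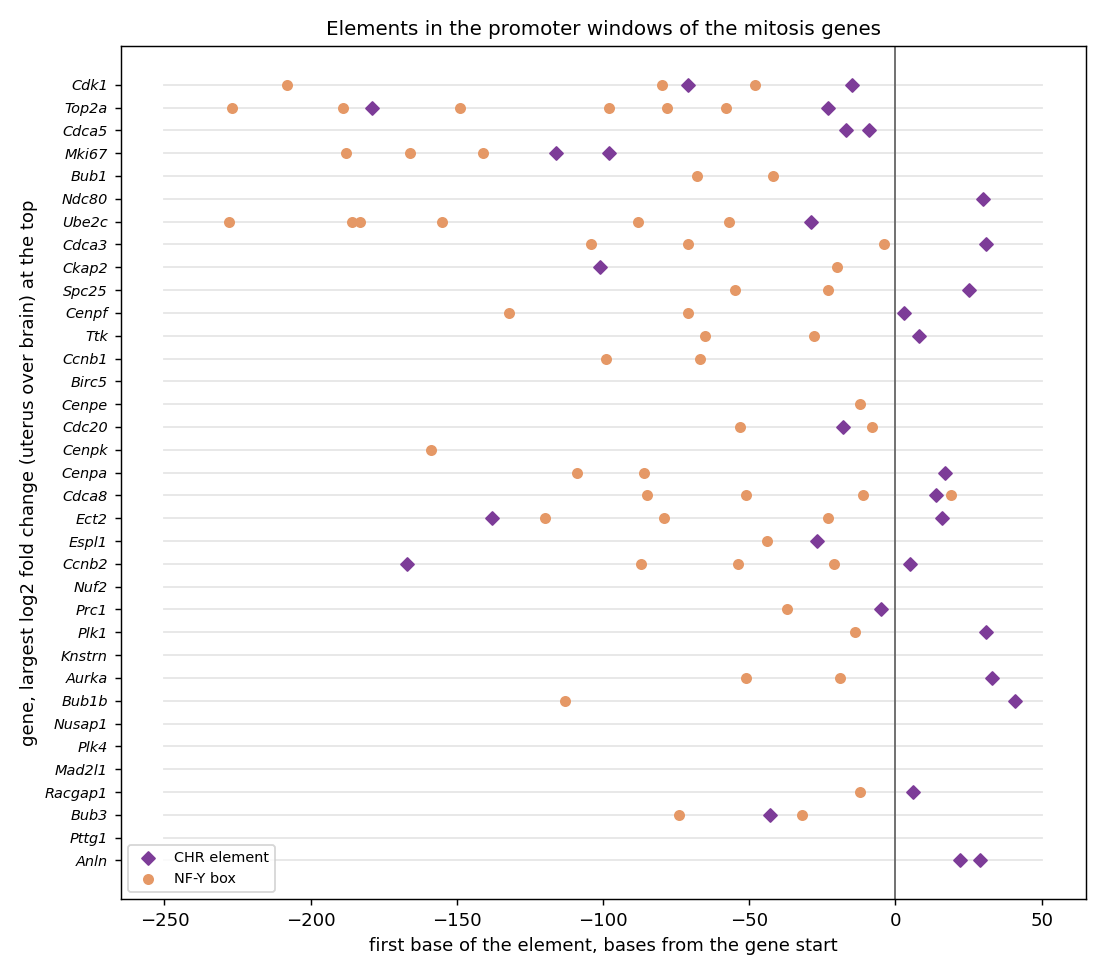
Positions of CHR elements (diamonds) and NF-Y (CCAAT) boxes (circles) on either strand in 1 promoter window of each of 35 genes, in bases from the gene start, with genes ordered by their difference between uterus and brain. In 22 genes a diamond lies within 50 bases of the start, mostly with circles upstream of it, and the lines of 7 genes, Pttg1 and Mad2l1 among them, hold no mark.

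The comparison of the organs asked which genes the uterus expressed above the brain at this stage of pregnancy. Of the 40 genes, 38 were higher in uterus, 1 (Anln) was higher in brain and 1 (Pttg1) did not pass (edgeR quasi-likelihood test, two-sided, adjusted over all 16074 tested genes at 0.05). Over all tested genes, the uterus was higher for 43.5% and the brain for 43.6%. Against a 2-fold change, 37 of the 40 were higher in uterus and 0 in brain, where 23.5% and 25.8% of all tested genes passed in those directions. Toward brain, 0 of the 40 passed the 2-fold test at an unadjusted p under 0.05 either (glmTreat), and 0 passed it with DESeq2 or limma-voom. The counts higher in uterus were also 38 and 37 without uterus library 3, which is described further on. The median log2 fold change (uterus over brain) was 4.03 for the 40 genes and 0.01 for all tested genes, and 32 of the 40 lay in the top 10% of all tested genes. All 4 uterus libraries stood above all 4 brain libraries for 37 genes (42.0% of all tested genes did so), and all brain libraries stood above all uterus libraries for Anln (42.0% likewise).

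Together the 40 genes summed to 1856, 2186, 1193 and 2176 CPM in uterus libraries 1 to 4, against 307, 287, 289 and 279 CPM in brain libraries 1 to 4. The uterine sums were 6.38 times those of brain on average and, as sums, varied far more between animals. Gene by gene the organs were closer, with an edgeR biological coefficient of variation of 22.2% in uterus and 18.3% in brain for the median gene. Anln, Bub3 and Pttg1 supplied 7.41 to 10.7% of the sum in uterus and 55.4 to 63.4% in brain. Without these 3 genes the mean sum was 14.1 times higher in uterus.

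**Figure D2:**
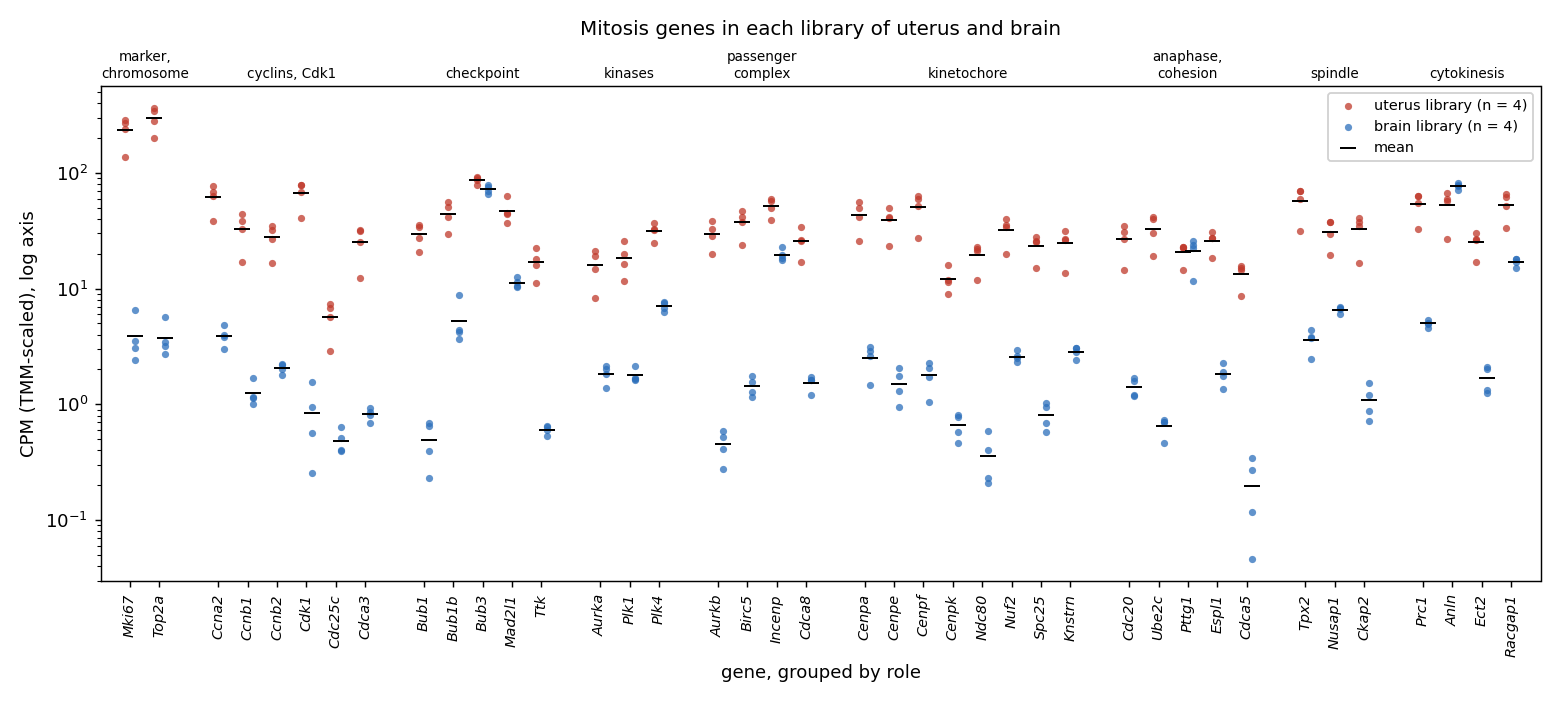
CPM of each of the 40 genes in 4 uterus libraries (red) and 4 brain libraries (blue) on a log axis, with black bars at the means and genes grouped by role. The organs separate by more than the spread of their libraries for most genes, and the exceptions Bub3, Pttg1 and Anln lie at 72.2 CPM, 20.9 CPM and 77.1 CPM in brain.

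The most abundant of the genes in uterus were Top2a and Mki67. Top2a, the topoisomerase that untangles chromosomes (chromosome 11, 98992943 to 99024189), was at 279.9, 362, 199 and 339.6 CPM in uterus libraries 1 to 4, against 5.64, 3.48, 2.73 and 3.19 CPM in brain libraries 1 to 4. Uterus library 3 was the lowest of its organ and brain library 1 the highest of its own, and the organs did not overlap (log2 fold change 6.31 ± 0.28 SE, adjusted p = 6.5e-09, edgeR quasi-likelihood test). Mki67, which coats mitotic chromosomes and marks dividing cells (chromosome 7, 135689784 to 135716361), was at 239, 272, 137 and 286 CPM in uterus libraries, against 6.50, 3.04, 2.42 and 3.55 CPM in brain libraries. The stretch of its promoter shown above holds 2 CHR elements, at 116 and 98 bases before the start. Per kb of annotated exon, Top2a stood at 32.8 ± 8.07 CPM in uterus and at 0.417 ± 0.143 in brain, and it was first of the 40 in uterus but 20th in brain, while Pttg1, Bub3 and Anln led in brain.

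All 6 genes of cyclins, Cdk1 and entry into mitosis were higher in uterus past a 2-fold change, with a median log2 fold change of 4.35. Cdk1, the kinase that drives mitosis (chromosome 10, 69335146 to 69352938), was at 68.7, 78.6, 40.9 and 78.0 CPM in uterus libraries, against 1.56, 0.945, 0.254 and 0.568 CPM in brain libraries. Its log2 fold change of 6.35 ± 0.39 was the largest of the 40 genes in this fit (adjusted p = 8.8e-08, edgeR quasi-likelihood test), and brain library 3 held the lowest level. Its cyclins differed less. Ccna2, the gene of cyclin A2, averaged 61.6 ± 16.6 CPM in uterus and 3.89 ± 0.746 CPM in brain (3.98 ± 0.23). Ccnb1 averaged 33.0 ± 11.6 CPM in uterus and 1.24 ± 0.302 CPM in brain (4.72 ± 0.32), and Ccnb2 averaged 27.6 ± 8.16 CPM in uterus and 2.06 ± 0.189 CPM in brain (3.74 ± 0.23). Ccnb1 is uncertain in level, since 3 processed pseudogenes hold stretches at 98% identity or more, as pseudogenes do for Cenpe, Mki67 and Racgap1. How the counting treated multi-mapping reads is not known here.

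Cdca3, a trigger of mitotic entry that acts against Wee1, averaged 25.2 ± 9.11 CPM in uterus and 0.821 ± 0.0979 CPM in brain (4.94 ± 0.33). Cdc25c, a phosphatase that activates Cdk1, was the scarcest of the 40 in uterus per kb of exon, at 1.16 ± 0.403 CPM, against 0.0988 ± 0.0232 in brain. Its exons overlap those of another gene on the opposite strand over 12.7% of their length, and the strand setting used for counting was not stated. The same holds for 9 other of the 40 genes, with the longest shares in Ube2c (22.8%, with Tnnc2), Ccna2 (12.5%, with Exosc9) and Prc1 (11.1%, with Rccd1).

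The spindle checkpoint genes were split by size. All 5 were higher in uterus, but only 4 passed a 2-fold change. Bub1, the kinase that brings checkpoint proteins to kinetochores (chromosome 2, 127801122 to 127831865), was at 27.2, 33.9, 20.8 and 35.7 CPM in uterus libraries, against 0.648, 0.392, 0.231 and 0.686 CPM in brain libraries (5.92 ± 0.30). Ttk, the kinase that starts checkpoint signalling, averaged 16.9 ± 4.59 CPM in uterus and 0.604 ± 0.0529 CPM in brain (4.81 ± 0.23). Bub1b, an inhibitor of Cdc20 within the checkpoint complex, averaged 44.4 ± 11.4 CPM in uterus and 5.26 ± 2.36 CPM in brain (3.07 ± 0.30). In brain it was uneven, at 4.40, 8.76, 4.23 and 3.64 CPM in libraries 1 to 4, so that library 2 stood apart from the others.

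Mad2l1, whose protein locks Cdc20 away from its target (chromosome 6, 66535390 to 66547220), was at 44.4, 45.1, 36.6 and 62.9 CPM in uterus libraries, against 12.6, 10.4, 10.6 and 11.3 CPM in brain libraries (2.08 ± 0.15). Bub3, the partner that carries Bub1 and Bub1b to kinetochores (chromosome 7, 131560222 to 131571895), was at 89.6, 87.6, 78.0 and 91.8 CPM in uterus libraries, against 74.96, 70.3, 78.3 and 65.4 CPM in brain libraries. Its organs overlapped: the highest brain library lay just above the lowest uterus library. The difference was small but passed (0.26 ± 0.07, adjusted p = 0.0054, edgeR quasi-likelihood test). Scaling by library size alone raises the median of all genes to 0.27, so a difference of this size is of the order of the choice of scaling, although it kept its direction and its call in all 17 alternatives.

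The mitotic kinase genes Aurka, Plk1 and Plk4 were all higher in uterus past a 2-fold change, with a median of 3.11. Aurka, the kinase of centrosomes and spindle poles, averaged 15.8 ± 5.66 CPM in uterus and 1.84 ± 0.33 CPM in brain (3.11 ± 0.29). Plk1, which acts from mitotic entry to cytokinesis, averaged 18.4 ± 5.85 CPM in uterus and 1.78 ± 0.232 CPM in brain (3.36 ± 0.24). Plk4, the kinase of centriole duplication, differed less, at 31.6 ± 5.02 CPM in uterus and 7.08 ± 0.633 CPM in brain (2.16 ± 0.13). It also varied less between uterus libraries than Aurka or Plk1, with a coefficient of variation of 15.9% against 35.8% and 31.9%.

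The chromosomal passenger complex joins the kinase Aurkb to Incenp, Birc5 (survivin) and Cdca8 (borealin) and corrects faulty attachments. All 4 genes were higher in uterus past a 2-fold change, yet by very different amounts. Aurkb (chromosome 11, 69045647 to 69051664) was at 28.4, 38.6, 19.9 and 32.6 CPM in uterus libraries, against 0.594, 0.415, 0.277 and 0.520 CPM in brain libraries (6.05 ± 0.28). Birc5 averaged 37.3 ± 9.69 CPM in uterus and 1.44 ± 0.271 CPM in brain (4.69 ± 0.23), and Cdca8 averaged 25.8 ± 6.86 CPM in uterus and 1.54 ± 0.233 CPM in brain (4.06 ± 0.22). Incenp, the scaffold of the complex (chromosome 19, 9872296 to 9899551), was at 49.3, 59.0, 39.4 and 57.5 CPM in uterus libraries, against 18.2, 23.0, 17.6 and 19.4 CPM in brain libraries (1.39 ± 0.14, adjusted p = 0.00395 against a 2-fold change, glmTreat). Per kb of exon, uterus held 11.8 ± 2.07 CPM of Incenp beside 10.2 ± 2.67 CPM of Aurkb, and brain held 4.51 ± 0.560 CPM of Incenp beside 0.153 ± 0.0466 CPM of Aurkb.

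All 8 centromere and kinetochore genes were higher in uterus past a 2-fold change, with a median of 4.44 and a range of 3.11 to 5.77. Ndc80, the outer kinetochore protein that grips microtubules (chromosome 17, 71496100 to 71526857), was at 20.9, 22.03, 11.9 and 22.8 CPM in uterus libraries, against 0.594, 0.207, 0.231 and 0.402 CPM in brain libraries (5.77 ± 0.33). Its partners in the same complex, Nuf2 and Spc25, averaged 32.2 ± 8.43 and 23.6 ± 5.69 CPM in uterus, against 2.59 ± 0.261 and 0.810 ± 0.210 CPM in brain (3.63 ± 0.21 and 4.87 ± 0.25). Nuf2 was among the genes with neither motif in its window. The kinetochore motor gene Cenpe averaged 38.9 ± 10.96 CPM in uterus and 1.51 ± 0.487 CPM in brain, and Cenpf, a large protein of the outer kinetochore, 50.5 ± 16.1 CPM in uterus and 1.78 ± 0.545 CPM in brain. Cenpa, the histone variant that marks centromeres, averaged 43.4 ± 13.1 CPM in uterus and 2.52 ± 0.748 CPM in brain, while Cenpk of the inner kinetochore and the adaptor gene Knstrn had log2 fold changes of 4.20 ± 0.24 and 3.11 ± 0.24.

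Of the 5 genes of anaphase and sister cohesion, 4 were higher in uterus past a 2-fold change. Cdc20 and Ube2c, an activator and the ubiquitin-conjugating enzyme of the anaphase-promoting complex, averaged 26.8 ± 8.73 and 32.7 ± 10.3 CPM in uterus, against 1.42 ± 0.260 and 0.653 ± 0.128 CPM in brain (4.24 ± 0.28 and 5.64 ± 0.30). Espl1, the gene of separase, which cuts cohesin, averaged 25.9 ± 5.17 CPM in uterus and 1.81 ± 0.371 CPM in brain (3.83 ± 0.20). Cdca5, the gene of sororin, which protects cohesion, was at 14.5, 15.8, 8.57 and 15.1 CPM in uterus libraries, against 0.270, 0.346, 0.0462 and 0.118 CPM in brain libraries (6.11 ± 0.40). In brain it had the fewest counts of the 40 genes, 32 over the 4 libraries.

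Pttg1, the gene of securin, which holds separase inactive (chromosome 11, 43420250 to 43426251), stood apart. It was at 22.8, 14.4, 22.9 and 22.4 CPM in uterus libraries, against 23.9, 11.6, 25.8 and 22.5 CPM in brain libraries. The organs overlapped, and library 2 was the lowest in each. No difference was detected (-0.02 ± 0.24, adjusted p = 0.941, edgeR quasi-likelihood test), and the sign turned, at 0.24, with upper-quartile scaling. With Pttg1 at like levels and Espl1 higher in uterus, securin RNA per kb of exon was 3.48 times separase RNA in uterus and 49.0 times in brain.

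The spindle genes Tpx2, Nusap1 and Ckap2 were all higher in uterus past a 2-fold change. Tpx2, the activator of Aurka on the spindle, averaged 57.4 ± 17.9 CPM in uterus and 3.60 ± 0.801 CPM in brain (4.00 ± 0.28), and Ckap2, a microtubule-binding protein gene, 32.5 ± 10.7 CPM in uterus and 1.08 ± 0.365 CPM in brain (4.91 ± 0.34). Nusap1, which bundles spindle microtubules, averaged 31.1 ± 8.74 CPM in uterus and 6.59 ± 0.404 CPM in brain (2.24 ± 0.20).

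Genes of the central spindle and cytokinesis held the exception toward brain. Prc1, which bundles the central spindle, and Ect2, which activates RhoA at the division site, were higher in uterus, at 53.5 ± 14.4 and 25.1 ± 5.53 CPM, against 4.995 ± 0.351 and 1.68 ± 0.445 CPM in brain (3.42 ± 0.21 and 3.91 ± 0.23). Racgap1, the partner that recruits Ect2, averaged 53.1 ± 14.5 CPM in uterus and 17.0 ± 1.34 CPM in brain (1.65 ± 0.19). Anln, the gene of the contractile ring scaffold anillin (chromosome 9, 22332012 to 22389188), was at 57.3, 59.9, 26.9 and 67.5 CPM in uterus libraries, against 81.4, 77.2, 79.2 and 70.6 CPM in brain libraries. Every brain library lay above every uterus library, but by little for the highest uterus library. The call was marginal (-0.54 ± 0.23, adjusted p = 0.0457, edgeR quasi-likelihood test). It ended with upper-quartile (-0.29) and library-size scaling (-0.29) and at an adjusted threshold of 0.01. It also ended without uterus library 1 (-0.57), brain library 1 (-0.51), brain library 2 (-0.53), brain library 3 (-0.52) or brain library 4 (-0.59). Without uterus library 3 the call held, at a smaller difference of -0.32. Anillin is also known in mice as part of a scaffold of central nervous system myelin. The 4 oligodendrocyte markers summed to 14.4 to 16.7 CPM in uterus and to 5528 to 6173 CPM in brain, and their part in the Anln level was not tested.

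**Figure D3:**
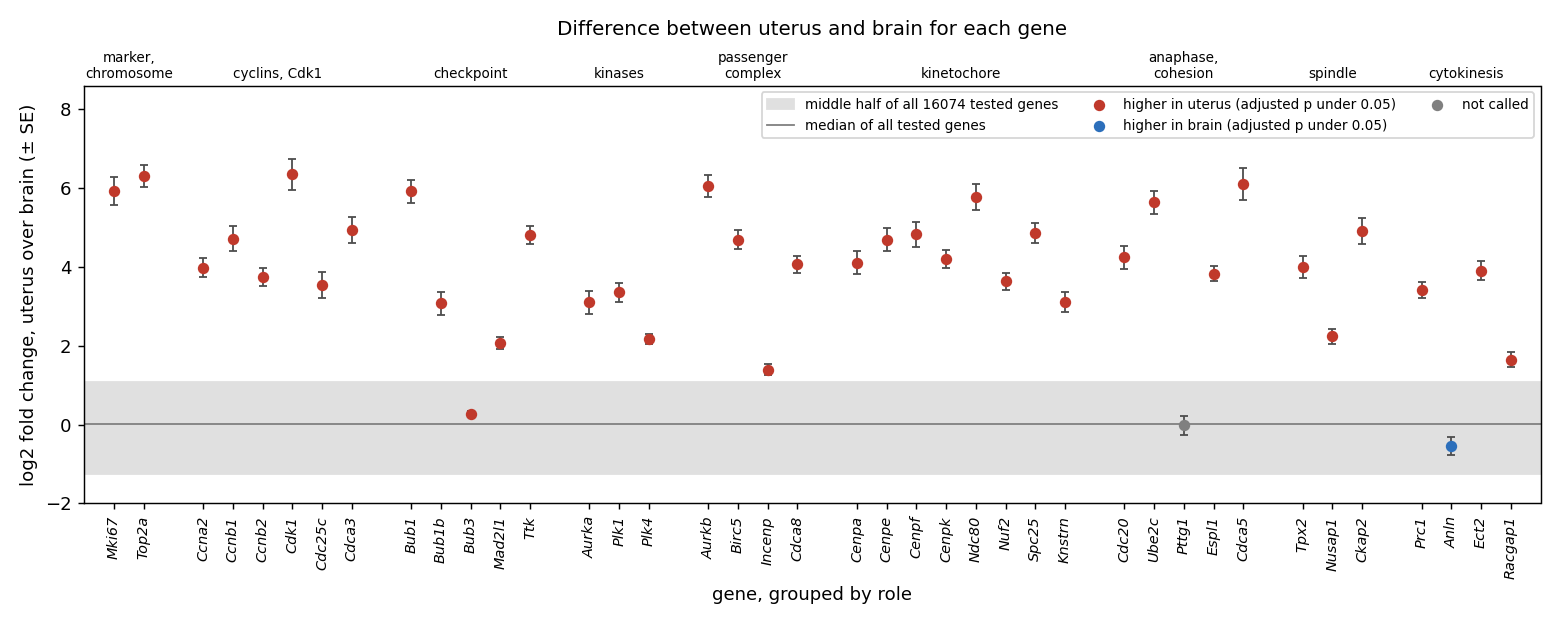
Log2 fold change of each of the 40 genes, uterus over brain, with its SE (bars), grouped by role, over a grey band from the lower to the upper quartile of all tested genes and a line at their median. Red points (higher in uterus) reach from 0.26 for Bub3 to 6.35 for Cdk1, Pttg1 (grey) was not called, and Anln (blue) was higher in brain.

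Partners of the same complex or step differed in how unequal they were between the organs. For 16 pairs of partners the ratio of their counts within a library, which no scaling of libraries can change, is given as a description with no test, since the pairs were chosen after the genes' values were known. In each pair the gene with the larger log2 fold change was made the denominator, so the common direction of the ratios was set by how they were written and only their sizes are read here. Bub3 over Bub1 had a log2 ratio of 1.59 ± 0.27 in uterus and 7.33 ± 0.81 in brain, a ratio 53.5 times higher in brain. Incenp over Aurkb had 0.80 ± 0.15 in uterus and 5.48 ± 0.49 in brain, Anln over Ect2 had 1.02 ± 0.25 in uterus and 5.56 ± 0.42 in brain, and Mad2l1 over Bub1 had 0.69 ± 0.19 in uterus and 4.64 ± 0.65 in brain (SD, n = 4 each). The pairs that differed least were Aurka over Tpx2, at -1.88 ± 0.11 in uterus and -0.96 ± 0.15 in brain, and Spc25 over Ndc80, at 0.29 ± 0.07 in uterus and 1.27 ± 0.39 in brain. Within uterus the partners kept to narrow ratios, with SDs from 0.06 to 0.58, the widest for Pttg1 over Espl1. Brain ratios had SDs from 0.15 to 1.18, at much lower counts of the denominator genes.

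**Figure D4:**
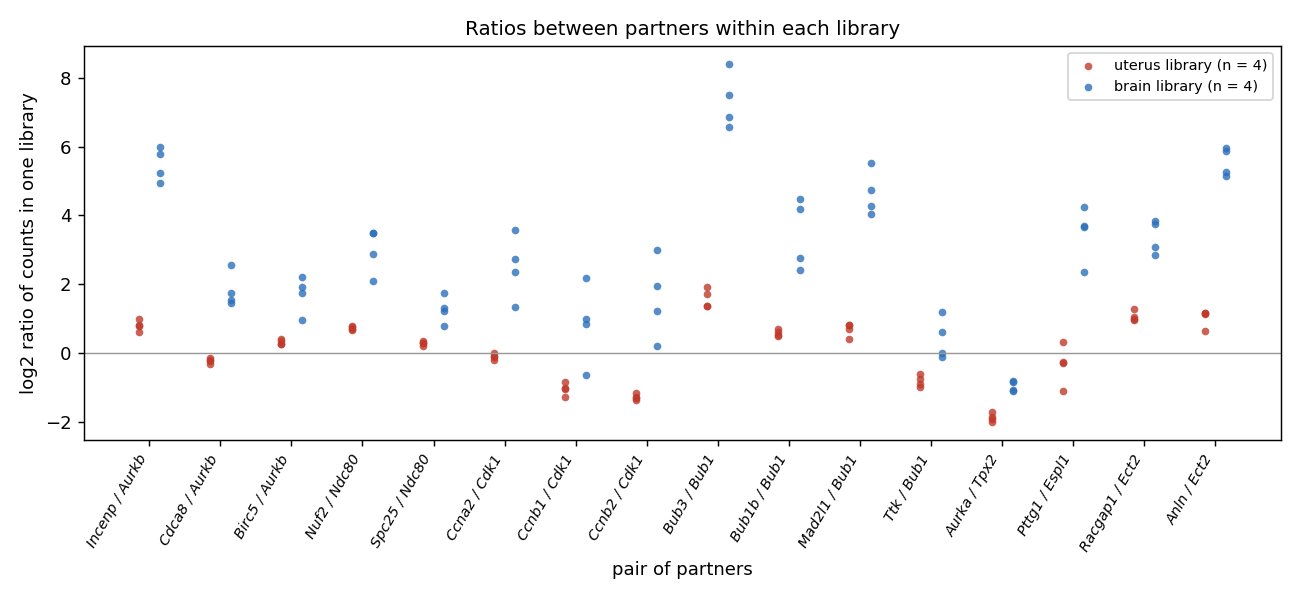
Log2 ratio of the counts of 2 partner genes within each of 4 uterus libraries (red) and 4 brain libraries (blue). The gene with the larger fold change is the denominator of each of the 16 pairs, which sets the uterus points below the brain points, and the gap is widest for Bub3 over Bub1.

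Between animals, uterus library 3 was low across the whole set. It held the lowest uterine level for 39 of the 40 genes, where 25.8% of all tested genes were lowest in that library, and Pttg1 was the exception. The mean deviation of the 40 genes from the uterine mean was 0.06, 0.28, -0.61 and 0.27 in libraries 1 to 4 on the log2 CPM scale, while the median deviation of all tested genes in library 3 was -0.01. The level in library 3 was 56.2% of the median of the other 3 libraries for the median gene, and it ranged from 39.1% for Cdca3 to 102.5% for Pttg1. After Pttg1, the shares nearest to the other libraries were those of Bub3 (87.0%), Mad2l1 (81.2%), Cenpk (77.0%) and Plk4 (75.5%), and Ccnb1 stood at 43.7%. Anln stood at 44.9% in this library, and its coefficient of variation over libraries was 33.8% in uterus and 6.03% in brain.

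Marker sums of uterine cell types differed less in library 3. Its epithelial markers summed to 766 CPM, within the 702 to 876 CPM of the other uterus libraries, and its smooth muscle markers to 3533 CPM, within 2881 to 3751 CPM. Endothelial markers summed to 805 CPM, within 771 to 866 CPM, and leukocyte markers to 159 CPM, within 153 to 166 CPM. The sum of the stromal markers was lowest there, at 6935 CPM against 7331 to 8389 CPM, and Col3a1, with a uterine mean of 5139 CPM, made up most of it. Of the 8 stromal markers, 4 were lowest in library 3. This library was also the shallowest, with 35394603 counts. The part of these values in the low levels of library 3 was not tested.

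In brain the genes shifted together less than in uterus. Their mean deviation from the brain mean was 0.19, 0.04, -0.29 and 0.06 in libraries 1 to 4. The median deviation of all tested genes in brain library 3 was 0.004. Library 3 held the lowest level of 22 of the 40 genes, where 24.0% of all tested genes were lowest in it, and library 1 the highest level of 16, where 29.8% of all tested genes were highest in it. Cdk1 deviated by 1.13 in brain library 1 and by -1.29 in brain library 3, but Pttg1 by 0.36 in brain library 3. Markers of neural progenitors and neuroblasts summed to 55.6 to 80.6 CPM in uterus, mostly from Nes, and to 126, 118, 90.8 and 116 CPM in brain libraries 1 to 4, so that brain library 3 was lowest there too. Markers of oligodendrocyte precursors, which share Pdgfra with uterine stroma, summed to 368 to 436 CPM in uterus and to 184, 217, 192 and 212 CPM in brain libraries 1 to 4. The sum was lowest in brain library 1, where Gpr17 stood at 52.4 CPM, against 65.2 to 80.4 CPM in the others. Single markers were split: Gpr17 and Cspg4 were lowest in brain library 1, and Pdgfra, Neu4 and, by very little, Olig2 in brain library 3. Of the markers of neural progenitors and neuroblasts, Dcx, of migrating neuroblasts, was at 63.6, 51.1, 37.4 and 55.8 CPM in brain libraries. Leukocyte markers, mostly Csf1r, summed to 121.9, 101.5, 101.6 and 106.8 CPM in brain libraries 1 to 4, so that brain library 1 was highest. The part of any of these cell types in the brain levels was not tested. The edgeR biological coefficient of variation of the median gene of the 40 was 22.2% in uterus, where the median of all tested genes was 13.0%, and 18.3% in brain, where it was 8.03%. In uterus 39 of the 40 lay above the trend for their abundance, as did 22.1% of all tested genes, and in brain 17 of the 40, as did 26.7%.

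**Figure D5:**
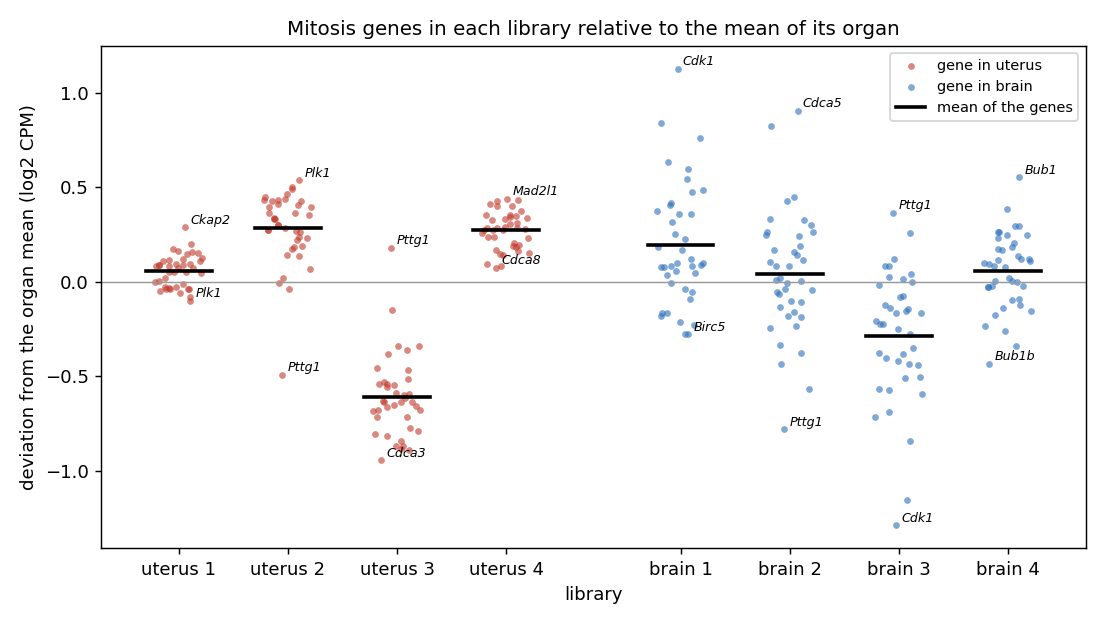
Deviation of each of the 40 genes from the mean of its organ, in log2 CPM, for each library, with black bars at the mean over the genes and the highest and lowest gene of each library named. In uterus library 3 the bar lies at -0.61 and Pttg1 alone lies above 0, while brain libraries show wider scatter around smaller shifts.

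Other genes of the same machinery were taken from lists of kinetochore, checkpoint, ubiquitin, chromosome and regulator genes. Of 26 further kinetochore genes, 24 were higher in uterus, 1 was higher in brain and 1 did not pass, with a median log2 fold change of 2.37. Over all tested genes, the shares were 43.5% toward uterus and 43.6% toward brain. The largest values of these kinetochore genes were those of Ska1 (6.11 ± 0.58), Knl1 (5.82 ± 0.38), the scaffold of the outer kinetochore, and Cenpi (4.97 ± 0.25). The exception was Zwint, which links Knl1 to the checkpoint at kinetochores and whose rat homologue is known to bind Snap25. It averaged 89.4 ± 6.46 CPM in uterus and 942 ± 22.6 CPM in brain (-3.40 ± 0.07). Cenpc1 did not pass, at 34.3 ± 3.71 CPM in uterus and 33.2 ± 1.85 CPM in brain (0.05 ± 0.08). All 10 further checkpoint partners were higher in uterus (median 3.85), against 43.5% of all tested genes. They were led by Haspin (5.51 ± 0.26), Sgo1 (5.34 ± 0.21), which guards centromeric cohesion, and Kntc1 (5.10 ± 0.17). In uterus library 3, where 25.8% of all tested genes were lowest, 25 of 26 kinetochore genes, 8 of 8 condensin genes, 13 of 17 genes of the anaphase-promoting complex and 7 of 10 checkpoint partners were at their lowest. So were 9 of 16 kinase and phosphatase genes, 11 of 20 transcription regulators and 5 of 12 cohesin genes.

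Subunits of the anaphase-promoting complex differed little. Of 17 subunits and regulators, 12 were higher in uterus, 1 in brain and 4 did not pass, against 43.5% and 43.6% of all tested genes toward uterus and brain. Only Fbxo5 (3.25 ± 0.21), an inhibitor of the complex, and Cdc26 (1.20 ± 0.07) passed a 2-fold change. That is a smaller share than the 23.5% of all tested genes that did so toward uterus. The median was 0.34. Fzr1, the activator that serves outside mitosis and in neurons, was the member higher in brain, at 36.6 ± 3.61 CPM in uterus and 60.2 ± 3.55 CPM in brain (-0.72 ± 0.08), while Cdc20, its mitotic counterpart, was higher in uterus as given above. Anapc2 did not pass, at 97.0 ± 4.87 CPM in uterus and 98.4 ± 2.12 CPM in brain.

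Condensin and cohesin, the ring complexes that fold chromosomes and hold sister chromatids, were unlike each other. Of 8 condensin genes, 6 were higher in uterus past a 2-fold change, led by Ncapg (5.46 ± 0.25), Ncaph (4.56 ± 0.19) and Smc4 (3.25 ± 0.11), and Ncaph2 (0.09 ± 0.06) and Ncapd3 (0.09 ± 0.06) did not pass. Both belong to condensin II, whose other subunit of its own on the list, Ncapg2, was among the 6 higher in uterus, at 65.98 ± 16.2 CPM in uterus and 8.19 ± 1.19 CPM in brain (3.01 ± 0.18). Of 12 cohesin genes, 8 were higher in uterus, 2 in brain and 2 did not pass, against 43.5% and 43.6% of all tested genes toward uterus and brain. Past a 2-fold change toward uterus, the share over all tested genes was 23.5%. The median of the cohesin genes was 0.49, and only Esco2, an acetyltransferase of dividing cells, passed a 2-fold change (20.7 ± 5.02 CPM in uterus and 0.494 ± 0.123 CPM in brain). Rad21, a core subunit, did not pass, at 167 ± 13.99 CPM in uterus and 175 ± 9.98 CPM in brain, and Pds5b was higher in brain (-0.55 ± 0.06).

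Of 16 kinase and phosphatase genes around mitosis, 9 were higher in uterus, 6 in brain and 1 did not pass, at a median of 0.82. These counts are near the shares over all tested genes (43.5% toward uterus and 43.6% toward brain). Cks1b and Cks2, small subunits of cyclin-dependent kinases, were at 42.5 ± 4.58 and 26.8 ± 6.68 CPM in uterus, against 1.72 ± 0.283 and 1.14 ± 0.3998 CPM in brain (4.63 ± 0.13 and 4.56 ± 0.29). Toward brain stood Ppp2r2c, a regulatory subunit of protein phosphatase 2A, at 17.5 ± 14.8 CPM in uterus and 614 ± 35.2 CPM in brain (-5.13 ± 0.53), and Ensa, an inhibitor of that phosphatase, at 141 ± 5.32 CPM in uterus and 321 ± 5.64 CPM in brain (-1.18 ± 0.05).

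Among 20 regulators of G2 and M phase transcription, 13 were higher in uterus, 3 in brain and 4 did not pass, with a median of 0.78. Over all tested genes, the shares were 43.5% toward uterus and 43.6% toward brain. Past a 2-fold change, 8 regulators were higher in uterus and 1 in brain, where 23.5% and 25.8% of all tested genes passed. The regulators past a 2-fold change with the largest values were E2f8 (5.62 ± 0.33) and E2f7 (3.73 ± 0.16), which act as repressors, and Foxm1 (4.12 ± 0.21). Foxm1, an activator of G2 and M phase genes that is itself transcribed in the cell cycle, stood at 35.6 ± 7.59 CPM in uterus and 2.05 ± 0.471 CPM in brain. Tfdp2 did not pass (-0.13 ± 0.08), and E2f6 was higher in brain (-0.21 ± 0.06), a difference within the range of the choice of scaling. E2f6 was not the furthest toward brain, since the lowest log2 fold change of the list was -1.23. Lin54, which reads the CHR element shown above, is named here for that role and not by size. It did not pass, at 19.0 CPM in uterus and 17.1 CPM in brain (0.15 ± 0.08).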

How the data were processed

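Per the labels' protocols, total RNA of whole uterus and whole brain (4 libraries each) was made into stranded libraries depleted of ribosomal RNA. Per the submitters' processing notes, the authors' tools were edgeR, featureCounts, FastQC and HISAT2 (2.0.3), with genome build GRCm38.p5. Annotation release, strand setting and treatment of multi-mapping reads: not given in the sources used here. In the table the authors deposited, values are raw counts per gene without normalization.

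From these counts, filterByExpr by organ kept 16074 of 19884 genes. The organs were compared with edgeR's quasi-likelihood test after TMM scaling, two-sided, with Benjamini-Hochberg adjustment over all tested genes at 0.05, and by glmTreat against a 2-fold change. A positive log2 fold change means more in uterus, and its SE is the unshrunken value divided by the square root of F. Deviations use log2 CPM with a prior count of 2. Exon lengths and coordinates came from GENCODE M21 on GRCm38, matched by identifier, and promoter sequences from RefSeq on GRCm38.p6. Near-identical transcripts were searched with BLAST 2.17.0 at 98% identity over 150 nt. Tools were R 4.3.3, edgeR 4.0.16, limma 3.58.1, DESeq2 1.42.0, Python 3.11.15.

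The genes, their grouping by role, the further lists and the pairs of partners were chosen with earlier results of these data known, and the pairs and the promoter sequences shown were picked after the genes' values were seen. All 40 genes are named. Each further list gave its 3 largest changes past 2-fold (1 CPM or more) and up to 2 genes called toward brain or not called, the most abundant first. Knl1, Sgo1, Sgo2a and Haspin were matched by identifier. Tried as alternatives: scaling by RLE, upper quartile or library size, other filters (none, or 1 CPM in 4 libraries), DESeq2, limma-voom, a block for replicate number, an adjusted threshold of 0.01, a prior of 0.5 for deviations, and each library left out in turn. On simulated counts for this comparison with 16114 genes tested, 98% of genes changed 2-fold and 100% of genes changed 4-fold were recovered, and 10 unchanged genes were called. Only well-counted genes were changed, and all genes were given the same dispersion. All other genes had the same mean in both organs, whereas 87.0% of tested genes were called in the data. The rates therefore do not carry over to the scarcest or most variable of the 40 genes, nor to scaling between organs this unlike. Counting error limits the lowest brain levels: 3 counts equal 0.0692 to 0.0810 CPM there. This limit covers counting error only, since no molecular identifiers are named in the labels.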

Additional observations from a re-analysis of the deposited data

Results flagged for a closer look

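Of 82 groups of 4 libraries checked (each of the 40 genes and their sum in each organ), 4 held a library set far apart from the other 3, and chance gives about 1 in 20. Pttg1 was at 14.39 CPM in uterus library 2, against 22.4 to 22.95 CPM in the other uterus libraries. Bub1b was at 8.762 CPM in brain library 2, against 3.642 to 4.398 CPM in the others. Plk1 was at 2.125 CPM in brain library 3, the highest of its organ, against 1.637 to 1.7 CPM. Ube2c was at 0.4619 CPM in brain library 3, against 0.7016 to 0.7379 CPM.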

How the results depend on the processing

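Over 17 alternatives, 38 of the 40 genes kept direction and call in each, and 664 of 680 values did so in all; the exceptions were Anln and Pttg1. The 1 gene called toward brain, Anln, became 0 with upper-quartile scaling, with library sizes alone and at an adjusted threshold of 0.01, and 0 to 1 when 1 library was left out. The log2 fold change of Pttg1, never called, turned from -0.02 to 0.24 with upper-quartile scaling, 0.23 with library sizes alone, 0.0229 with limma-voom and 0.0148 with the replicate block, and ranged from -0.21 to 0.12 when 1 library was left out. Upper-quartile and library-size scaling moved the median of all tested genes from 0.01 to 0.27, and each cut the cohesin genes called toward brain from 2 to 1. DESeq2 called 5 regulators of G2 and M phase transcription toward brain in place of 3; the cause was not tested. Deviations of same-numbered uterus and brain libraries correlated at -0.17, -0.17, 0.12 and 0.10 across genes. The largest value, 0.30, was for uterus library 2 and brain library 1. Deviations centred on 4 libraries of unlike organs cannot decide whether a number marks the same mouse, so pairing stays unknown. The replicate block left 38 genes higher in uterus. The count of 39 genes lowest in uterus library 3 was also 39 with library sizes alone and with RLE and upper-quartile scaling, both chosen after seeing the data. Depth limits only the scarcest brain levels, such as that of Cdca5.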
